A study of Mus musculus with 2 samples.

Results

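Non-endothelial, cancer-like cells made up 185 of the 475 cells kept from a droplet library that was sorted from E0771 mammary tumors for CD31+ CD45- cells, the surface profile of endothelial cells (ECs). They were chosen by 3 genes. A cell was taken as cancer-like when its UMIs (unique molecular identifiers, each counting 1 captured RNA molecule) of Rhox5, Hmga2 and Krt8 summed to 3 or more and exceeded those of the endothelial genes Cdh5 and Pecam1. Cells were kept with 200 or more genes, under 10% mitochondrial UMIs and no UMI of Ptprc, which encodes CD45. The 185 cells were 38.9% of the kept cells, 26.3% of the 704 barcodes of the library, and held 71.7% of the UMIs of the kept cells. They were compared with 248 tumor ECs, cells with 2 or more UMIs of Cdh5 and Pecam1 that exceeded the sum of the 3 genes. The remaining 42 kept cells met neither rule.

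E0771 is a mouse mammary carcinoma line, and its tumors were grown orthotopically and pooled before sorting. Neither a genotype, an age nor a treatment of the tumor-bearing mice is in the labels of this library. The library it was set against holds CD31+ CD45- cells from pooled mammary glands of C57BL/6 mice of 6 to 8 weeks, and some of its labels name tumor ECs while its title and the design text give normal glands, which is how it was read. Each condition had 1 library, so no difference was tested. The 2 libraries together held 9751 barcodes, of which 3 sequences were shared and none of these was a cancer-like cell.

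Carcinoma cells with mesenchymal features have lost part of the adhesion genes of epithelium, such as E-cadherin and the keratins, and express matrix genes and transcription factors that are otherwise found in connective tissue. Proliferating cancer cells are known for aerobic glycolysis, for synthesis of serine and one-carbon units that feed nucleotides, and for secreted factors that recruit myeloid cells. ECs, which line the vessels, instead take up fatty acids, deposit the basement membrane and present chemokines to passing leukocytes.

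The marker genes were at 3 to 487 UMIs per cancer-like cell, with a median of 73. Just inside the limit, 3 cells had 3 of these UMIs and 7 had 4, and just outside it, 4 cells had 2 and 12 had 1. The cells at 3 held 4038 to 7693 UMIs in all and those at 2 held 822 to 1711. Rhox5 and Hmga2 alone reached 3 UMIs in 183 of the 185 cells and in none of the 6873 kept cells of the normal library. No Cdh5 or Pecam1 UMI was found in 125 of the cancer-like cells, 36 had 1 and 24 had 2 or more, the highest being 52 in a cell with 200 marker UMIs. The cancer-like cells were deeper than the tumor ECs, with a median of 62538 UMIs (1484 to 183550) against 17488.5 (510 to 55669), and of 6904 genes against 4145.5. Their mean UMI count was 3.50 times that of the tumor ECs, so a gene at equal levels had that many more UMIs per cell, and levels below are given as UMIs per 1000000 (CPM) summed over the cells of a group.

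**Figure D1:**
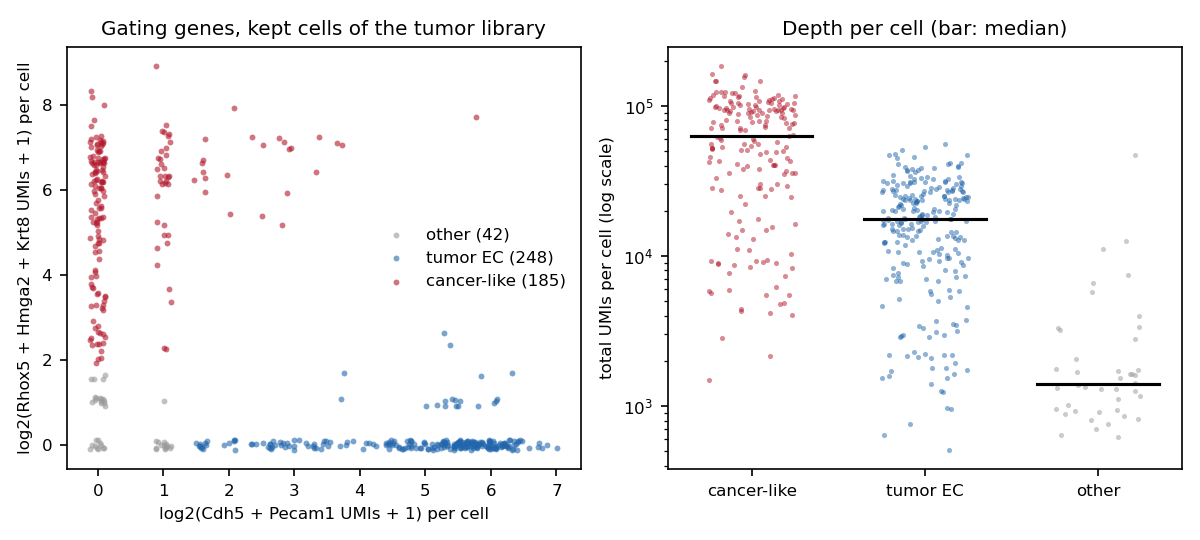
Each point is 1 kept cell of the tumor library, with the gating genes at left (log2 of UMIs + 1, jittered) and the total UMIs at right (log scale, bars at the median). Of the 185 cancer-like cells 125 lie at the left edge with no Cdh5 or Pecam1 UMI, 36 have 1, and 24 lie further right with 2 to 52. The median of 62538 UMIs in the cancer-like cells is above that of the 248 tumor ECs (17488.5) and of the 42 other cells (1404.5).

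The cells were set beside markers of other cell types. The 12 genes of an endothelial list, which does not hold Cdh5 or Pecam1, summed to 109 CPM in the cancer-like cells and 7658 CPM in the tumor ECs. The highest cancer-like cell was at 903 CPM and the lowest tumor EC at 2541. The groups had been separated on 2 other endothelial genes of the same cells. This gap therefore describes the rule and is not an independent check of the label. Myeloid genes summed to 16.9 CPM over 6 of 7 genes seen, with Csf1r at 0, compared with 18.9 CPM in tumor ECs. They had a UMI in 37.8% of cancer-like cells and 18.5% of tumor ECs, with the highest cells at 1996 and 2649 CPM. Lymphoid genes summed to 1.34 CPM, with Cd3e and Nkg7 at 0, compared with 0.877 CPM in tumor ECs. Of the smooth muscle list, Myh11 and Cnn1 were at 0 and Acta2 gave 136 of 138 CPM. Of the pericyte list, Pdgfrb gave 38.0 of 40.2 CPM, while Rgs5 was at 0.840 CPM and Higd1b at 0. In the fibroblast list of 8 genes, Col3a1 was at 238 CPM, but Dcn had 4 UMIs in all the cells together, Col1a2 had 3 and Lum had none. The fibroblast and smooth muscle lists were not low beside the tumor ECs. The former summed to 289 against 6.36 CPM and had a UMI in 89.7% of the cancer-like cells and 10.5% of the tumor ECs, and the latter summed to 138 against 8.55 CPM with a UMI in 67.0% and 7.26% of cells, while the pericyte list was at 40.2 against 43.9 CPM. The fibroblast list ran from 0 to 4038 CPM per cancer-like cell and from 0 to 650 CPM per tumor EC, and the smooth muscle list from 0 to 1039 and from 0 to 576 CPM. Adipocyte genes are not in the table of the tumor library. Lymphatic genes were at 0.336 CPM and Schwann cell genes at 2.10 CPM.

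Of 12 epithelial marker genes, which do not include Krt8, 5 had a UMI in the cancer-like cells and all together summed to 3.95 CPM. Krt18, the keratin that pairs with Krt8 in simple epithelium, had 4 UMIs where Krt8 had 3222. The same marker rule was met by 887 kept cells of the normal library, nearly all through Krt8, and in these Krt18 had 51357 UMIs and Krt8 45574. Epcam, an epithelial adhesion protein, was at 1.01 CPM in the cancer-like cells and at 2010 CPM in the epithelial-marked normal cells, where it was seen in 99.3% of cells against 5.95%. Krt19 was at 0.168 CPM against 3232. Cdh1, which encodes E-cadherin, Krt7, Cldn3 and Cldn7 had no UMI in the cancer-like cells, which allows a level of up to 0.252 CPM, while in the epithelial-marked normal cells Cdh1 was at 193 CPM and Krt7 at 857 CPM. The cancer-like cells were the deeper of the 2 groups (median 62538 against 11353 UMIs). Other genes of epithelium were found. The transcription factor Klf5 was at 18.6 CPM against 1.97 in tumor ECs and Pkp2, a protein of desmosomes, at 16.7 against 0.439 CPM, while the integrin Itga6, at 202 against 377 CPM, and the tight junction protein Tjp1, at 42.6 against 128 CPM, were also present in the ECs. No file marks the E0771 cells directly, and Rhox5 and Hmga2 belong to the rule, so cancer-like is used here as the name of the cells that met it.

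Compared with tumor ECs, 803 of the 7968 genes with a mean of at least 10 CPM were higher in cancer-like cells (10.1% of the genes compared) and 1247 were lower (15.7%). A gene was counted as higher or lower when the whole 95% interval of its ratio lay beyond 2-fold. These intervals, and all others given with levels and ratios, cover counting error only, and since the cells were separated on genes of the same cells the counts are a description. The median log2 ratio over all genes compared was 0.04.

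Among genes of at least 100 CPM in either group, the 15 with the largest ratios included Esx1, Tex19.1, Sox9, Nppb and Pla2g7. Esx1, a homeobox gene of placenta and testis, had 1342 UMIs in the cancer-like cells and 1 in the tumor ECs, a log2 ratio of 9.01 (6.52 to 14.31). Tex19.1, a germline gene that restrains retrotransposons, was at 172 against 0.439 CPM, Sox9, a transcription factor of cartilage and of epithelial progenitors, at 142 against 0.439 CPM, and Nppb, which encodes a natriuretic peptide, at 157 against 0.877 CPM. Pla2g7, a secreted phospholipase, Gm364 and 4930550L24Rik were 203-fold, 171-fold and 155-fold higher. Of the oncofetal and germline list, 17 of 33 genes were in the table and 3 were compared. Hmga1, the paralog of a gating gene, was at 180 against 13.6 CPM and Igf2bp2, which binds mRNAs of growth control, at 62.4 against 0.219 CPM, while the imprinted gene Peg3 had 1 UMI against 488. Afp, which is expressed in fetal liver and yolk sac, had 158 UMIs in 55 cancer-like cells and none in the tumor ECs, or at least 20.2-fold more. At the other end stood Meox2, a homeobox gene of ECs and mesoderm, with 1 UMI against 847, and Tmem252 with 4 against 2223. Chga, which marks neuroendocrine granules, had 1 against 815 UMIs, and was seen in 9.68% of the tumor ECs.

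Metabolism was examined in 9 lists. Of 148 genes listed 137 were compared, and 39 were higher (28.5%), 7 lower (5.11%) and 91 neither, with a median log2 ratio of 0.59. Over all genes the shares were 10.1% higher and 15.7% lower. The separation was uneven between pathways. The lists of serine and one-carbon synthesis, cholesterol, nucleotides and glycolysis had medians of 0.83 or more, while that of the respiratory chain stood at 0.13.

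Of the 9 lists, serine and one-carbon synthesis had the highest median log2 ratio, 1.77. Of the 12 genes compared in this list 8 were higher (66.7%) and 1 lower (8.33%), beside 10.1% and 15.7% over all genes. Its summed level was 1148 against 439 CPM, compared with 1125 against 402 CPM for cholesterol synthesis and, in the other direction, 496 against 4653 CPM for the genes of lipid synthesis and handling. Phgdh, the enzyme that diverts a glycolytic intermediate into serine, was at 377 CPM (366 to 388) in cancer-like cells and 8.99 CPM (6.45 to 12.2) in tumor ECs, a 41.9-fold ratio. It was seen in 173 of the 185 cells, and the 10th percentile, median and 90th percentile of cells were at 107, 334 and 593 CPM. Psat1 and Psph, which carry out the next steps to serine, were 7.37-fold and 2.50-fold higher. Shmt2, the mitochondrial enzyme that takes a one-carbon unit from serine, was at 128 against 31.4 CPM, and its cytosolic counterpart Shmt1 at 24.6 against 5.26 CPM. Mthfd1l, which releases formate from mitochondria, was 4.07-fold higher. Mthfd2 was at 80.0 against 35.1 CPM, with an interval that reached below 2-fold (log2 0.95 to 1.44). Tyms, which makes thymidylate with a one-carbon unit, went the other way, at 42.0 against 146 CPM.

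Asparagine synthetase, Asns, was 7.18-fold higher at 326 CPM (316 to 337) against 45.4 CPM (39.4 to 52.0), and Slc7a5, a transporter of large neutral amino acids, 5.68-fold higher. Asns is a known target of ATF4 through an amino acid response element, so its proximal promoter is shown. The 250 bases before its start (RefSeq, GRCm38.p6, chr6:7693210-7693459, minus strand, 5′ to 3′) hold a single match to TGATGNAA, searched on both strands, from 23 to 16 bases before the start and printed in capitals:

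Asns: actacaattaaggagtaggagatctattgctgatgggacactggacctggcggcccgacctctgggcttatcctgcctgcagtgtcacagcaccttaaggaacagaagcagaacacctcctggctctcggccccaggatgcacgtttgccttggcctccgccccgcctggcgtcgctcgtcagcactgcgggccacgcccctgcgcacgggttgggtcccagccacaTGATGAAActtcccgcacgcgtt

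Such a match was present in 3.45% of 32851 promoters of the same length, and in 1 (Asns itself) of the 13 genes with a promoter in the RefSeq table among Asns and the serine list. The other 3 genes of amino acid and redox metabolism that were higher were Got1, Hmox1 and Slc7a5, of 18 compared. The share higher, with Asns, was 22.2%, compared with 10.1% over all genes. In the unfolded protein response list, which shares Asns, no other gene was higher, Xbp1 was lower and the median log2 ratio over 15 genes was -0.21. The shares higher and lower were 6.67% each, compared with 10.1% and 15.7% over all genes.

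In glycolysis 7 of 17 genes were higher (41.2%, compared with 10.1% over all genes), none was lower and the median log2 ratio was 0.83. Hk2, the inducible hexokinase, had 689 UMIs against 3 and was at 57.9 against 0.658 CPM. The lactate exporter Slc16a3 was at 336 CPM (326 to 347) against 77.6 CPM (69.8 to 86.2), and Slc16a1, which moves lactate both ways, was 8.98-fold higher. Ldha, which makes lactate, was at 1760 against 761 CPM, Gapdh at 5436 against 2416 CPM and Tpi1 at 1206 against 416 CPM. Pkm, the last step to pyruvate, was at 1030 against 1618 CPM and was not counted as lower. The glucose transporter Slc2a1 was at 188 against 123 CPM. Of 21 respiratory chain genes none passed 2-fold in either direction, and the summed level was 6911 against 6558 CPM. In the TCA cycle, of 20 genes compared, Idh2 and Idh3g were higher (10%, compared with 10.1% over all genes). Ogdh was lower (5%, compared with 15.7% over all genes). G6pdx, which opens the pentose phosphate pathway, was 3.95-fold higher and the other 6 genes of that pathway did not pass 2-fold. The share higher in that list was 14.3%, compared with 10.1% over all genes.

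Of 15 genes of nucleotide synthesis 6 were higher (40%, compared with 10.1% over all genes). Impdh2 and Gmps, which make guanine nucleotides, were at 356 against 115 CPM and at 145 against 43.0 CPM. Umps, which completes uridine monophosphate, was at 83.3 against 23.5 CPM. In cholesterol synthesis 7 of 15 were higher (46.7%). Fdps, which makes farnesyl diphosphate, was at 364 against 93.6 CPM, and Sqle, which commits squalene to sterols, at 95.6 against 15.4 CPM. Of 12 genes of fatty acid synthesis and lipid handling 4 were higher (33.3%) and 5 lower (41.7%, compared with 15.7% over all genes). The synthesis enzymes Acaca, Fasn, Elovl6 and Scd1 were higher, with Fasn at 89.3 against 16.7 CPM and Scd1 at 28.5 against 0.658 CPM. Other synthesis genes did not pass 2-fold, with Acly at 40.0 against 58.3 CPM, Scd2 at 127 against 60.5 CPM and the regulator Srebf1 at 32.2 against 28.1 CPM. The genes that were lower were Cpt1a, which passes fatty acids into mitochondria for oxidation, and 4 of fatty acid uptake and transport, with Cd36 at 0.924 against 247 CPM, Gpihbp1, which anchors lipoprotein lipase to capillaries, at 6.05 against 1891 CPM and Fabp5 at 1.68 against 245 CPM. Fabp4, at 99.8 against 2061 CPM, was concentrated in few cancer-like cells: after thinning to 10000 UMIs per cell 86.1% of its UMIs came from 10 of 158 cells.

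**Figure D2:**
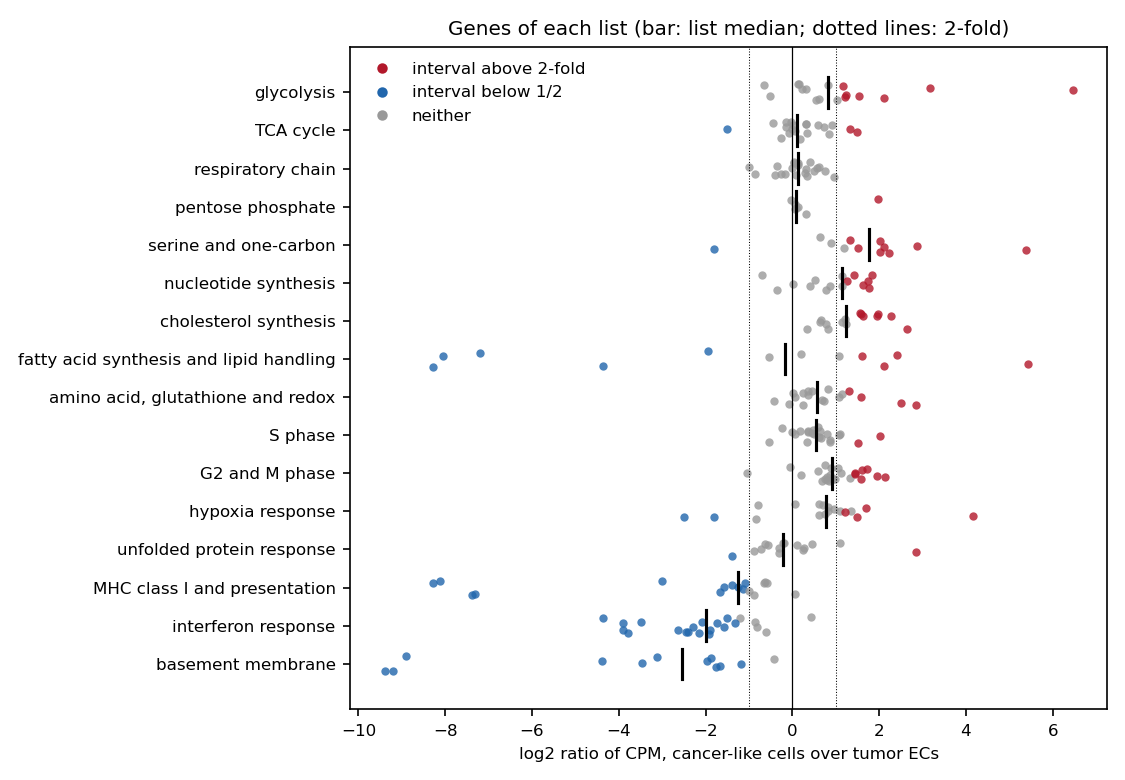
Each point is 1 gene, placed by its log2 ratio of CPM in cancer-like cells over tumor ECs, in rows by gene list, with a bar at the list median and dotted lines at 2-fold. Genes are colored by whether the whole counting interval lay beyond 2-fold; the serine, nucleotide and cholesterol rows lie to the right (medians 1.77, 1.14 and 1.23), the respiratory chain at 0.13, and the MHC class I and basement membrane rows to the left (medians -1.26 and -2.54), as is the interferon row.

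Each list of secreted factors held genes in both directions. Of 126 genes listed 69 were compared, with 21 higher (30.4%) and 29 lower (42.0%), beside 10.1% and 15.7% over all genes. Of 9 chemokines compared 2 were higher (22.2%), the monocyte attractants Ccl2 and Ccl7, and 4 were lower (44.4%). Ccl2 was at 965 CPM (947 to 982) against 251 CPM (237 to 266), and Ccl7 at 320 CPM (309 to 330) against 3.07 CPM (1.68 to 5.15). Both were uneven between cells, with Ccl2 at a median of 345 CPM, a 90th percentile of 2255 and a highest cell at 10362 CPM. Cxcl9 and Cxcl10, the interferon-induced ligands of CXCR3 on T cells, Cxcl12 and Cx3cl1 were lower. Cxcl9 was at 14.8 CPM against 2142, Cxcl12 had 2 UMIs against 965 and Cx3cl1 was at 1.85 against 35.3 CPM. Cxcl10 was at 47.6 against 1201 CPM, and 86.9% of its UMIs in thinned cancer-like cells came from 10 cells.

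In the list of cytokines and immune factors 8 of 13 genes were higher (61.5%) and 5 lower (38.5%), beside 10.1% and 15.7% over all genes. Among those higher were both ligands of the macrophage receptor encoded by Csf1r. Csf1 was at 110 against 40.6 CPM, and Il34 was at 42.7 CPM with 509 UMIs against 1. Mif, a macrophage migration factor, was at 1847 against 463 CPM. Spp1, or osteopontin, was at 391 CPM (380 to 402) against 25.2 CPM (20.8 to 30.3) and in single cells ranged from a median of 140 to 4098 CPM. The galectins Lgals1 and Lgals3 were 4.71-fold and 23.8-fold higher, and Ptges, which makes prostaglandin E, was at 182 against 1.32 CPM. Il18 was also higher. Il6, Il15, Tnfsf10, Lgals9 and Nt5e were lower.

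Growth factors showed 5 higher (26.3%) and 10 lower (52.6%) of 19, beside 10.1% and 15.7% over all genes. The ligands of the EGF receptor Areg and Ereg had 1278 UMIs against 1 and 666 against 4. Areg was seen in 110 of the 185 cells, with a highest cell at 1904 CPM. The receptor, Egfr, was at 8.90 CPM with no UMI in the tumor ECs. Vegfa, the main ligand for vessel growth, was at 27.5 against 1.54 CPM, Vegfb at 71.0 against 15.4 CPM and Pdgfa at 99.1 against 16.2 CPM. Factors made by ECs themselves, including Pdgfb, Angpt2, Apln and Pgf, were at 0.756 to 1.76 CPM in cancer-like cells and 309 to 541 CPM in tumor ECs. In the 125 cancer-like cells with no Cdh5 or Pecam1 UMI the log2 ratio of Pdgfb went from -8.04 to -11.03, while those of Angpt2, Apln and Pgf were at -8.12, -8.67 and -7.29 in place of -8.47, -9.48 and -7.71. Over all cancer-like cells 3 UMIs of a gene are 0.252 CPM, so the ratios of these 4 genes rest on few UMIs. Ratios in the 125 cells, here and below, are given without an interval. Of 13 protease inhibitors 4 were higher and 4 lower (30.8% each). Timp2, an inhibitor of matrix metalloproteinases, was at 392 against 28.5 CPM, and Serpinf1, which encodes pigment epithelium-derived factor, at 310 against 1.97 CPM. Wfdc2 and Slpi, protease inhibitors of epithelium, were at 195 against 2.41 CPM and 20.7 against 0.219 CPM. Timp3 was lower at 1.34 against 295 CPM, and its log2 ratio went from -7.78 to -9.38 in the cells with no Cdh5 or Pecam1 UMI, as that of Gpihbp1 went from -8.29 to -10.06. Of the proteases Mmp2 and Adam8 were higher and Mmp14, Mmp15, Adam10, Adamts1, Adamts4 and Plau were lower. These were 13.3% and 40% of the 15 compared, beside 10.1% and 15.7% over all genes.

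The mesenchymal lists held genes far above the ECs and others near 0. Of 75 genes listed 47 were compared, with 23 higher (48.9%) and 14 lower (29.8%), beside 10.1% and 15.7% over all genes. Of the transcription factors Prrx1 had 1633 UMIs against 2, Twist1 1023 against 3, Twist2 1010 against none, or at least 129-fold more, and Zeb2 1280 against 6. Each was seen in 81.1 to 86.5% of the cancer-like cells and 0 to 2.42% of the tumor ECs, or, with each cell thinned to 1900 UMIs, in 15.8 to 18.5% and 0 to 0.431%. Runx1 was also higher, while Zeb1 was lower at 35.9 against 111 CPM and Tcf4 at 104 against 698 CPM. Of the surface and cytoskeletal genes S100a4, an S100 protein of motile fibroblasts, was at 841 CPM and 76.7-fold higher, the receptor kinase Axl at 158 against 2.85 CPM and the hyaluronan receptor Cd44 at 212 against 9.21 CPM. Pdgfra and Pdgfrb, receptors of connective tissue cells, were at 30.7 and 38.0 CPM against 1.10 and 0.219 CPM. The contractile genes did not move as a set. Acta2 was at 136 against 3.29 CPM and Tpm2 at 202 against 1.75 CPM, while Tagln had 3 UMIs and Cnn1 none. Vim, the intermediate filament of mesenchymal cells and ECs, was at 7412 against 9314 CPM and was seen in every cell of both groups.

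The interstitial matrix list also held both directions, with 10 genes higher (52.6%) and 7 lower (36.8%) of 19. Over all genes the shares were 10.1% and 15.7%. The chains of collagen VI, a microfibrillar collagen, were 246-fold (Col6a1), 153-fold (Col6a2) and 94.4-fold (Col6a3) higher, with Col6a1 at 431 CPM (420 to 443) against 1.75 CPM (0.757 to 3.46) and seen in 173 cells. Col3a1 was at 238 against 2.85 CPM and Col5a1 at 63.7 against 1.10 CPM. The chains of collagen I, the main fibrillar collagen of fibroblasts, had a mean under 10 CPM and were not compared, with 67 UMIs of Col1a1 in 20 cancer-like cells and 3 of Col1a2. The enzymes of collagen cross-linking Loxl2 and Plod2 were 29.1-fold and 11.5-fold higher. Fn1, or fibronectin, had 7 UMIs against 1165 and Thbs1 had 3 against 1205, and Sparc was at 463 against 5800 CPM. In the basement membrane list 11 of 12 genes were lower (91.7%) and none was higher. Col4a1 and Col4a2, its collagen chains, were at 209 against 2297 CPM and 63.0 against 1319 CPM, and Lama4, a laminin chain of vessels, had 5 UMIs against 1133.

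These genes were also set beside 2 classes of connective tissue cell in the normal library, chosen after the data had been seen: 140 cells with 3 or more UMIs of Dcn, Lum and Col1a2 and 342 with 3 or more of Rgs5, Kcnj8 and Abcc9. Prrx1 was at 137 CPM in cancer-like cells, 144 in the fibroblast-marked and 198 in the mural-marked cells, and Col6a1 at 431, 191 and 211 CPM. Col1a1, a fibroblast gene outside the gates, was at 5.63, 550 and 163 CPM in the same order and the contractile gene Tagln at 0.252, 1371 and 2039 CPM. Twist2 was at 84.8, 5.64 and 5.40 CPM and Spp1 at 391, 1.41 and 0 CPM. Epcam was at 676 CPM in the fibroblast-marked and 251 in the mural-marked cells, so that these classes also held RNA of epithelial cells. The levels come from separate libraries and from cells of different depth, with medians of 7950.5 and 4563 UMIs in the normal classes.

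**Figure D3:**
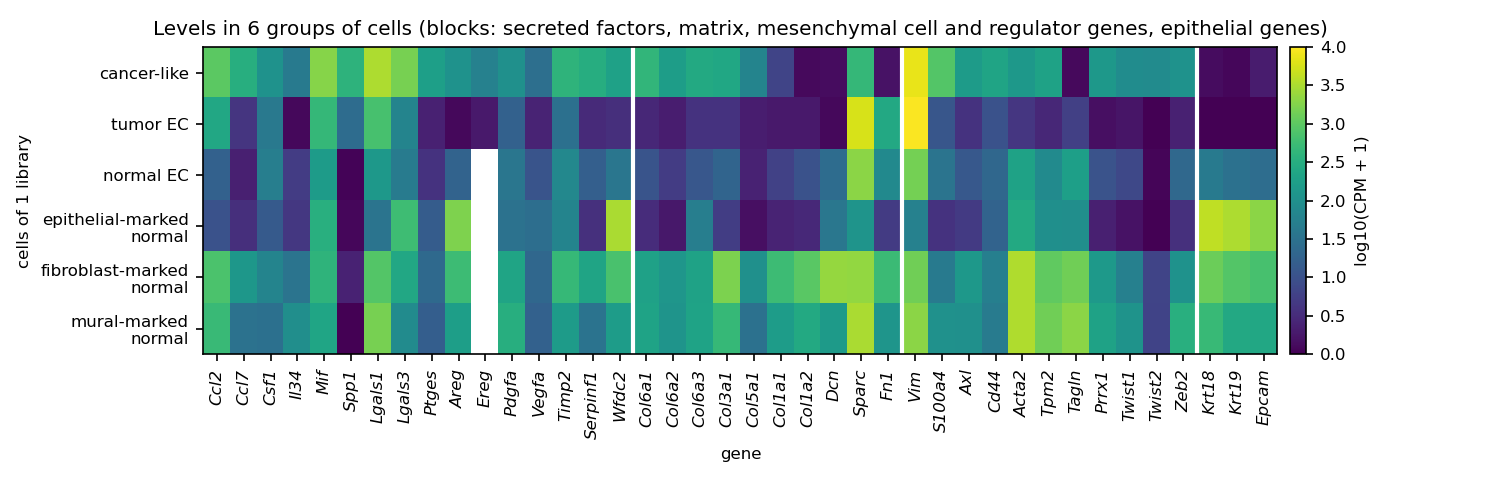
Color gives log10(CPM + 1) of each gene (columns) in 6 groups of cells (rows; the upper 2 from the tumor library, the others from the normal library), with white for a gene that is not in the table of that library. The cancer-like row is high for collagen VI, Prrx1, Twist1 and Twist2, and dark for Col1a2, Dcn, Fn1, Tagln, Krt18, Krt19 and Epcam.

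Receptors of hormones and growth factors included few of mammary epithelium. Esr1, the estrogen receptor, had 1 UMI in all the cancer-like cells, and Erbb2 was at 7.56 CPM. Of 8 receptors compared Met, Ddr1, Ddr2 and Axl were higher (50%, compared with 10.1% over all genes). Met, the receptor of hepatocyte growth factor, was at 64.7 against 8.55 CPM. Kit was lower, with 5 UMIs against 355, as was Ephb4 (25%, compared with 15.7% over all genes).

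Most genes in the lists of growth and division did not pass 2-fold. Of 15 compared genes of cyclins, MYC and CDK inhibitors 3 were higher and 1, Rb1, was lower, with a median log2 ratio of -0.16. The shares were 20% and 6.67%, compared with 10.1% and 15.7% over all genes. Myc was at 186 CPM (178 to 193) against 33.8 CPM (28.6 to 39.5) and Ccnd2 at 247 against 51.5 CPM. The cell cycle inhibitors Cdkn2a and Cdkn2b had no UMI in the cancer-like cells and 12 and 42 in the tumor ECs, so Cdkn2b was at least 36.6-fold lower. Of 22 S phase genes Ccne1 and Cdt1 were higher (9.09%, compared with 10.1% over all genes). Of 24 genes of G2 and M phase 7 were higher (29.2%, compared with 10.1% over all genes) and none was lower. Those higher included Top2a, a topoisomerase of dividing cells, at 205 against 69.1 CPM and Cenpf at 138 against 31.6 CPM. Mki67 was at 28.0 against 57.7 CPM. After thinning each cell to 10000 UMIs, 115 of 158 cancer-like cells (72.8%, Clopper-Pearson interval 65.1 to 79.6%) had 5 or more UMIs of the G2 and M list, compared with 44 of 177 tumor ECs (24.9%, 18.7 to 31.9%), with 27 and 71 cells left out as too shallow. The shares without thinning were 90.8% and 30.6%. These intervals cover only the counting of cells within 1 library, not a spread between tumors. Of 13 p53 target genes none was higher, and Tnfrsf10b and Plk2 were lower (15.4%, compared with 15.7% over all genes). Trp53 itself was at 200 against 121 CPM and its target Cdkn1a at 94.4 against 180 CPM.

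Genes of antigen presentation and of the interferon response were lower. In the list of MHC class I and antigen presentation 11 of 17 genes were lower (64.7%, compared with 15.7% over all genes). None was higher. The classical genes H2-K1 and H2-D1 were at 641 against 5122 CPM and at 2824 against 6003 CPM, and B2m, their shared light chain, at 1589 against 5061 CPM. H2-Q4, H2-Q6, H2-Q7 and H2-T23, which are non-classical, were at 2.18 to 4.95 CPM in cancer-like cells and 381 to 1554 CPM in tumor ECs, and in the cancer-like cells with no Cdh5 or Pecam1 UMI the log2 ratio of H2-Q6 went from -8.11 to -9.68. The H2-Q genes are near-identical copies, and reads may have been divided among them or dropped. The peptide transporter gene Tap1 was at 133 against 399 CPM, while the chaperone Canx was at 289 against 279 CPM. Of 22 interferon response genes 17 were lower (77.3%) and none was higher. Irf7 was at 56.3 against 627 CPM, Isg15 at 322 against 1440 CPM and Iigp1 at 43.6 against 651 CPM. Of 10 checkpoint and inhibitory ligands 9 were lower (90%). Among them Cd274, which encodes PD-L1, was at 7.22 against 58.8 CPM and Cd47 at 229 against 616 CPM.

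**Figure D4:**
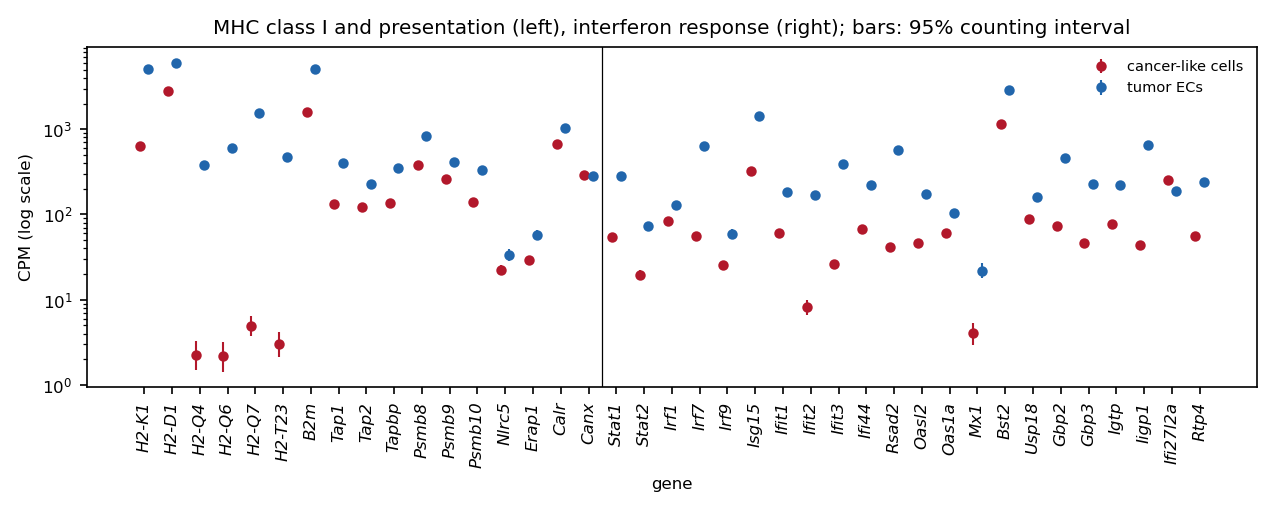
Points are CPM (log scale) of each gene of the MHC class I and interferon lists in cancer-like cells and tumor ECs, with bars for the 95% Poisson interval, which is smaller than most points. Of the 39 genes, 28 were lower in cancer-like cells by the 2-fold rule, and the 4 points near the bottom at left are H2-Q4, H2-Q6, H2-Q7 and H2-T23.

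The cancer-like cells differed among themselves. In the 158 cells thinned to 10000 UMIs, 2898 genes had a mean of 0.5 UMIs or more, with a median Fano factor (variance over mean) of 1.25. The highest was that of the nuclear RNA Malat1 (269), which ranged from 0 to 1119 UMIs with a median of 25, followed by Gm42418, Neat1, S100a6 and Cxcl10. Ccl2, Mt1, Fth1, Gapdh and Ccl7 completed the first 10. Of the first 60, 19 were ribosomal protein genes.

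Summed by program, hypoxia genes without those of glycolysis ran from 1 to 57 UMIs per cell (median 8), and the metallothioneins Mt1 and Mt2, which bind zinc, from 0 to 110 (median 7). Spearman's rho between them was 0.57 over the 158 cells, between hypoxia and glycolysis 0.53 and between glycolysis and metallothioneins 0.54. Ccl2 and Ccl7 together ran from 0 to 134 UMIs, with a rho of 0.50 with the immediate early genes, which respond to stimulation and to tissue dissociation. Malat1 and Neat1 had a rho of -0.58 with ribosomal protein genes, 0.40 with the immediate early genes and 0.15 with Ccl2 and Ccl7. Cells with few or no UMIs of Malat1 and Neat1 were kept throughout, and their part in these values was not tested. These are descriptions over cells of 1 library that share a fixed total of UMIs.

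**Figure D5:**
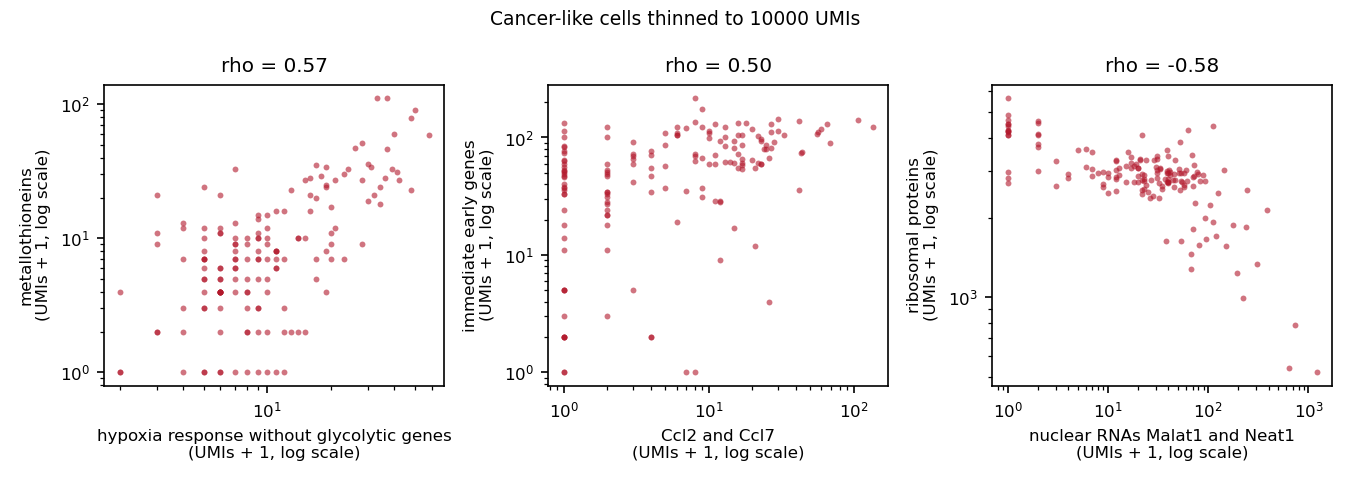
Each point is 1 of 158 cancer-like cells thinned to 10000 UMIs, with summed UMIs + 1 of a program on each axis (log scales). Hypoxia genes and metallothioneins lie along a rising band (rho 0.57), as do the chemokines Ccl2 and Ccl7 and the immediate early genes (0.50), and the cells with the most Malat1 and Neat1 have the fewest ribosomal protein UMIs (-0.58).

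In the level over all cells, Mt1 was at 868 against 33.3 CPM in tumor ECs and Mt2 at 334 against 10.1 CPM. Mt2 was named for its place beside Mt1 after its values had been seen. Both genes are known targets of MTF1 through metal response elements, and their promoters are shown because they vary together with the hypoxia genes in single cells. Matches to TGCACNC or TGCGCNC, on either strand, are in capitals in the 250 bases before each start (RefSeq, GRCm38.p6, plus strand, chr8:94178839-94179088 for Mt1 and chr8:94172368-94172617 for Mt2):

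Mt1: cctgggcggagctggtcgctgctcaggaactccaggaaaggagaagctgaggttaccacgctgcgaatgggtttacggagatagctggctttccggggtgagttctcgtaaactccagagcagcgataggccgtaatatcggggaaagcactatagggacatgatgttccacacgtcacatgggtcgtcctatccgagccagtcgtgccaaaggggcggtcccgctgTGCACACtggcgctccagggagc
Mt2: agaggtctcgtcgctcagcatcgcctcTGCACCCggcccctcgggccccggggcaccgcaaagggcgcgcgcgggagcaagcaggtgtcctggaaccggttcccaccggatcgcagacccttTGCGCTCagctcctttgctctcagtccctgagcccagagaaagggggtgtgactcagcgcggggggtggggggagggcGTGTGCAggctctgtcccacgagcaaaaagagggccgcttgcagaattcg

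In the windows shown, Mt1 had 1 match and Mt2 had 3. Only these windows before the RefSeq starts were searched, so sites elsewhere near either gene are not counted. Whether these starts are the ones used in the cancer-like cells was not tested. At least 1 match was present in 21.4% of the 32851 promoters and at least 3 in 1.26%. Of the hypoxia list 4 of 18 genes were higher in cancer-like cells than in tumor ECs, namely Vegfa, Bnip3, Ldha and Mxi1, and Ankrd37 and Pfkfb3 were lower. The shares were 22.2% and 11.1%, compared with 10.1% and 15.7% over all genes.

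Against the 887 epithelial-marked cells of the normal library 1464 of 8234 genes were higher (17.8%) and 1548 were lower (18.8%). Phgdh, at 377 CPM, was at 57.8 CPM in the epithelial-marked cells, Asns at 34.9 CPM and Vim at 55.3 CPM against 7412. Areg, Wfdc2 and Sox9, which were higher than in tumor ECs, were at 1682, 3138 and 745 CPM in the epithelial-marked cells, above their 107, 195 and 142 CPM in the cancer-like cells. The epithelial-marked cells were taken by the marker rule alone and were not divided by kind of epithelium. The library and the condition cannot be told apart in these values.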

How the data were processed

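UMI counts per gene and barcode were deposited by the authors without normalization for 2 droplet libraries, 1 for each condition, with 15644 genes and 704 barcodes (18980858 UMIs in all) in the tumor table and 17641 genes and 9047 barcodes (40914092 UMIs) in the normal one. The submitters' processing notes name Cell Ranger, Seurat and mm10; versions and the annotation are not given in the sources used here. The members, gene lists and comparisons were chosen with earlier results of these data known. Cells were grouped by the marker rule, UMIs were summed within a group and scaled to 1000000, and sums were given exact Poisson intervals and ratios exact conditional binomial intervals at 95% (Python 3.11.15, numpy 2.4.6, scipy 1.17.1, matplotlib 3.10.9). Genes with a mean of at least 10 CPM were compared. No doublet caller was run. A fold against 0 was set against 3 counts. Gene names in the text come from 42 lists, from the 15 largest and 15 smallest ratios among genes of at least 100 CPM in either group, and from the 15 highest Fano factors. Fibroblast- and mural-marked classes were added later. On simulated data for the comparison of cancer-like cells with tumor ECs (7973 genes, 200 changed 4-fold), the intervals held the true ratio for 96.5% of changed and 95.6% of other genes, 99.5% of changed genes were called and none of the others. The simulated sums were Poisson draws with no spread between cells, which is what the intervals assume. These shares therefore check only the calculation of the intervals, not how real cells vary. Alternatives covered the member rule, filters, scaling, threshold, depth and nuclear RNA.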

Additional observations from a re-analysis of the deposited data

Results flagged for a closer look

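Of the barcodes of the tumor library, 86 met the marker rule but not the filters and were left out of the comparisons. They were singled out because they hold signal that the main measurement does not use. Of the 86, 82 had 3 or more UMIs of Rhox5 and Hmga2, which the marker rule itself selects, and no left-out barcode of the normal library did. Of the 86, 81 had 10% or more mitochondrial UMIs (median 23.5% over all 86) and 7 had a Ptprc UMI. Their median depth was 14106.5 UMIs. Per 1000000 non-mitochondrial UMIs, collagen VI genes were at 1549 in these barcodes and 893 in the cancer-like cells, the serine and one-carbon genes at 1392 and 1181, and the endothelial list at 145 and 112. The part of the high mitochondrial share in these values was not tested.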

How the results depend on the processing

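Each condition had 1 library, so nothing here bears on the spread between tumors, and low genes are limited by the 11908383 UMIs of the cancer-like cells and 4559800 of the tumor ECs. Leaving out Krt8, cells with a Cdh5 or Pecam1 UMI, cells with few marker UMIs, cells of 5% or more mitochondrial UMIs, cells under 500 genes, cells with Myh11, Epcam or Cspg4, or the deepest 5% gave 125 to 185 members and kept every count within 1.5 times its value, as did median ratio scaling. In 14 alternatives, of which the minimum CPM and 4-fold leave ratios as they are, no called ratio changed sign among the 452 to 454 named genes that had one. Sizes did change: the ratio left its counting interval for 309 named genes when thinned, 138 without cells high in Malat1 and Neat1, 133 by the mean over cells, 76 without members holding a Cdh5 or Pecam1 UMI, 71 without the deepest 5% and at most 28 elsewhere, and it moved by over 1.5 times for 154, 26, 58, 33, 26 and at most 9. Counts of genes higher and lower than in tumor ECs moved to 1389 and 2225 with no minimum CPM, 293 and 541 at a mean of at least 50 CPM, 291 and 717 at 4-fold and 387 and 718 when cells were thinned to 1900 UMIs, and 1412 were higher by the mean over cells. By the mean over cells, genes were counted on a ratio of 2-fold or more alone, with no interval, so that count also follows a looser rule. For metabolism, genes higher were 21 at 50 CPM, 9 at 4-fold and 19 when thinned, and genes lower were 4 at 4-fold and 4 when thinned. For secreted factors 13 were higher and 18 lower at 50 CPM. For mesenchymal genes 14 were higher at 50 CPM and 8 lower at 4-fold. Against epithelial-marked normal cells, 3230 were lower with no minimum CPM, 576 were higher and 512 lower at 50 CPM, 543 and 822 at 4-fold and 867 and 798 when thinned. Leaving out cells with over 1% of UMIs from Malat1 and Neat1, chosen after seeing the data, left 163 members and 53 epithelial-marked cells, and 751 genes were higher than in the latter. Without Krt8, or with Epcam-positive cells removed, under 20 epithelial-marked cells remained and no value was given. A stricter filter, a higher threshold and thinning leave fewer genes or reads by construction, and a count without an interval can take in more genes. For the others the cause was not tested. No paired analysis was possible because each condition has 1 library.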

Other observations

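Xist, the RNA that coats the inactive X chromosome of female cells, was at 2.60 CPM in the cancer-like cells and 685 CPM in the tumor ECs, and was seen in 11 of the 185 cells. It is in none of the lists and was singled out after its values had been seen. In the normal library it was at 709 CPM in ECs and 1418 CPM in the epithelial-marked cells.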
